A study of Mus musculus with 8 samples.

Results

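En1 and En2, the 2 mouse engrailed genes, were followed across 8 pools of sorted midbrain cells. They were found through the probes that the annotated array table gives their symbols. Each gene had 1 probe, so they make up 2 of the 55681 probes on the array and 2 of the 23868 genes that could be named. En1 (gene ID 13798, probe A_51_P227386) lies on mouse chromosome 1 at 120602487 to 120607991 in GRCm38.p6, and En2 (gene ID 13799, probe A_51_P397876) on chromosome 5 at 28165696 to 28172190. The exon that each probe matches was not used here.

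The cells came from embryos of stage E14.5 with 1 allele of Pitx3 carrying Gfp, written Pitx3(gfp/+), which every group shares, so no wild-type embryo is among the samples. Pitx3 is a transcription factor gene whose brain expression marks midbrain dopamine neurons. The ventral midbrain was cut into a rostral and a caudal part, dissociated with papain and sorted by flow cytometry. There were 4 rostral and 4 caudal pools of Gfp-positive cells, each from 5 to 7 embryos, and a common reference of pooled Gfp-negative cells from those specimens. Every array of the 8 held a Gfp-positive pool in the green channel (Cy3) and the reference in the red (Cy5).

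Engrailed proteins are homeodomain transcription factors named after the Drosophila gene engrailed. In the early neural tube both genes are switched on around the isthmus, the boundary of midbrain and hindbrain, where the signals Wnt1 and Fgf8 and the transcription factors Pax2, Pax5 and Pax8 act with them. Both stay on in midbrain dopamine neurons, which depend on them for survival. The proteins bind DNA with partners of the Pbx and Meis families and repress many targets through Groucho corepressors, which the Tle genes encode.

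Of the 2 genes, RefSeq's promoter table for GRCm38.p6 matched En1. Its upstream sequence is shown because En1 and En2 were both lower in rostral pools, and the window before the start of En1 is the regulatory sequence at hand. It covers chr1:120602237-120602486 on the forward strand, 5′ to 3′, with capitals marking matches to CACGTG and CCAAT, the cores of the E-box and of the CCAAT box, on either strand.
En1 promoter: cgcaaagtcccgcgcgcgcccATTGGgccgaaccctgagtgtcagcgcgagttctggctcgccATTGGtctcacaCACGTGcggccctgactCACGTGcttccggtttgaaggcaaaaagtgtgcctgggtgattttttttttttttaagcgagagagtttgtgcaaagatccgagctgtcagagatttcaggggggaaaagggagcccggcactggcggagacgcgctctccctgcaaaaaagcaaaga
The first of these began 175 and 158 bases before the start. The second began 229 and 187 bases before it, both times as its reverse complement. No match overlapped another. Of 32851 promoters searched over the same length, 6.02% hold CACGTG and 33.8% hold CCAAT. The homeodomain cores TAATTA, found in 4.84% of promoters, and TAATCC, found in 6.25%, are not in this window. These matches describe letters only.

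Each pool's level is given as a log2 ratio, the log2 of its green over its red signal after normalization, so 0 is the level of the Gfp-negative reference. A gene was called where limma's adjusted p was below 0.05. Nothing in the labels says that the 2 parts came from separate embryos, and p-values measure only the spread between these pools. In pooled cells, fewer cells that express a gene and less RNA per cell cannot be told apart. The pools matched their label: 6 of 6 dopaminergic markers were higher in Gfp-positive pools than in the reference (median log2 ratio 3.67), with Pitx3 itself at 3.58 (SE 0.04) and Th, the enzyme that limits dopamine synthesis, at 3.34 (SE 0.03). In the green channel 62.5% to 70.4% of probes gave a signal well above background, and in the red 54.0% to 63.5%. Over genes, the log2 ratios of any 2 arrays correlated at 0.81 to 0.91.

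Both engrailed genes were enriched in the sorted neurons. En1 had log2 ratios of 1.66, 1.92, 1.40 and 1.82 in the 4 rostral pools, against 2.46, 2.59, 2.51 and 2.38 in the 4 caudal pools. En2 had 1.57, 1.64, 1.05 and 1.50 in rostral pools, against 2.40, 2.23, 2.33 and 2.41 in caudal pools. All 8 pools lay above the reference for each gene, and every caudal pool lay above every rostral pool. Averaged over both parts, En1 was 4.27-fold higher in Gfp-positive pools than in the reference (log2 ratio 2.09, SE 0.07, limma adjusted p = 6.6e-09), and En2 was 3.71-fold higher (1.89, SE 0.06, adjusted p = 2.5e-09).

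That both genes were called carries little weight by itself, because 71.6% of the 18512 genes tested were called in this comparison, 34.7% as higher and 36.9% as lower in Gfp-positive pools. Centring each array on its median in place of loess moved the median of all genes from -0.0029 to 0.13 and gave 8396 genes higher and 5255 lower, against 6421 and 6837. The size says more: 0.551% of genes tested had a log2 ratio at least as high as that of En1, and 0.772% one at least as high as that of En2. The reference counts as 1 control sample, and its own spread is left out of the test. The dyes were not swapped, so the ratios include whatever effect the dyes had.

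The engrailed genes differed between the parts of the midbrain. En1 averaged 1.70 ± 0.23 in rostral and 2.48 ± 0.09 in caudal pools (log2 ratio, SD, n = 4 each), a difference of -0.78 (SE 0.15), which makes it 1.72-fold lower in rostral pools. En2 averaged 1.44 ± 0.27 in rostral and 2.34 ± 0.09 in caudal pools, a difference of -0.90 (SE 0.12), or 1.87-fold lower. Both were called by limma, En1 with an adjusted p = 0.0143 and En2 with an adjusted p = 0.00281 over the 18054 genes tested. For each gene the exact two-sided permutation test of the mean gave p = 0.0286, the smallest that the 70 splits of 8 pools allow.

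Calls were much rarer in this comparison, with 6.34% of genes passing the test, 3.53% as higher and 2.81% as lower in rostral pools. Every caudal pool lay above every rostral pool for 6.07% of genes, and the groups did not overlap in either direction for 12.5%. A difference at least as low as that of En1 was seen for 1.76% of genes and one at least as low as that of En2 for 1.27%.

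**Figure D1:**
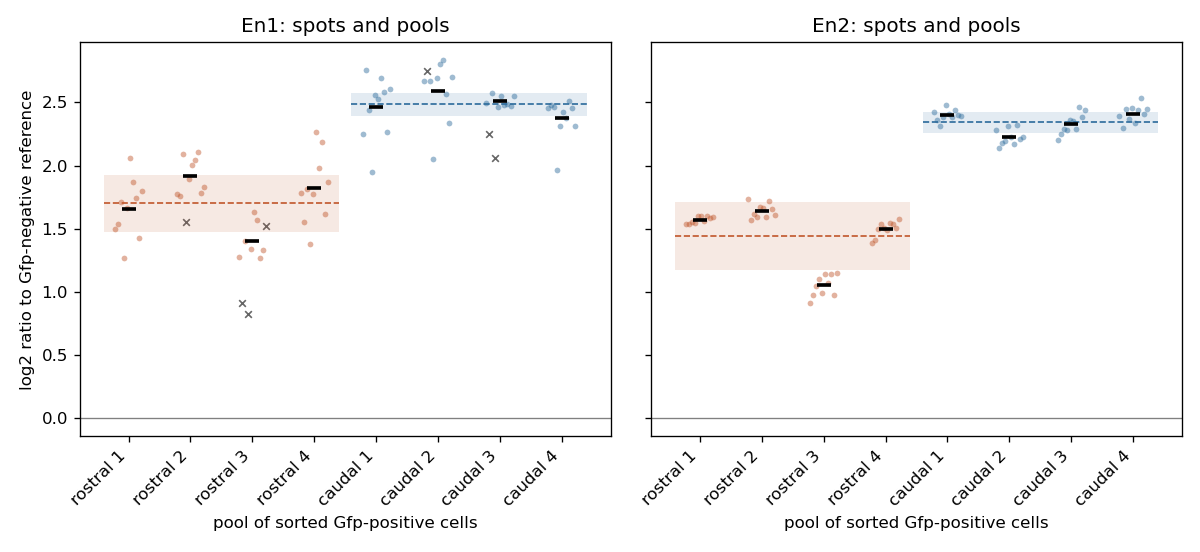
Log2 ratio to the Gfp-negative reference (y axis) of En1 (left) and En2 (right) in each rostral (orange) and caudal (blue) pool. Small dots are the spots of the probe, crosses are spots marked as outliers and left out, black bars are pool means, and dashed lines with bands are group means ± SD; the lowest caudal pool, at 2.38 for En1 and 2.23 for En2, lies above the highest rostral pool, at 1.92 and 1.64.

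All arrays lay on 1 slide, in 2 rows of 2 rostral and 2 caudal pools each. Within row 1 the difference, rostral minus caudal, was -0.74 for En1 (limma adjusted p = 0.282) and -0.70 for En2 (adjusted p = 0.111). Within row 2 it was -0.83 for En1 (adjusted p = 0.228) and -1.10 for En2 (adjusted p = 0.0483). The direction was the same in both rows, but with 2 pools per part only En2 in row 2 passed the test. With the row as a block both genes passed it, En1 at an adjusted p = 0.0211 and En2 at an adjusted p = 0.00444.

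Each engrailed probe is printed 10 times on the array, as are 399 probes in all, which gives a view of the error within an array. For En1 the SD over spots of 1 array was 0.04 to 0.27 on the log2 scale, and 7 of its 80 spots over all arrays were marked as outliers and dropped. For En2 the SD over spots was 0.03 to 0.08 and 0 spots were dropped. Taken position by position, the caudal arrays lay above the rostral arrays at 10 of 10 En1 spots, with mean differences of -1.0 to -0.59, and at 10 of 10 En2 spots, with differences of -0.96 to -0.86. The spots of 1 array share its hybridization and are no replicates of a part.

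The channels were also read on their own, as log2 signals made comparable between arrays. In the Gfp-positive channel En1 had signals of 519, 655, 443 and 573 in rostral pools, against 945, 1028, 917 and 978 in caudal pools. On the log2 scale this is 9.08 ± 0.24 in rostral and 9.92 ± 0.07 in caudal pools (SD, n = 4 each), a difference of -0.83 (limma adjusted p = 0.0162). En2 had signals of 123826, 130378, 88624 and 116687 in rostral pools, against 217676, 193852, 206732 and 216880 in caudal pools. This is 16.79 ± 0.25 in rostral and 17.67 ± 0.08 in caudal pools, a difference of -0.88 (limma adjusted p = 0.00246). In this channel 6.1% of genes were called, 2.65% as lower in rostral pools. No En1 or En2 spot was saturated.

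The reference channel did not follow the parts. En1 read 7.38 ± 0.04 on the arrays of rostral pools and 7.43 ± 0.09 on those of caudal pools (log2 signal, SD, n = 4 each, limma adjusted p = 0.999; exact permutation p = 0.429). En2 read 15.35 ± 0.02 on the arrays of rostral pools and 15.33 ± 0.01 on those of caudal pools (limma adjusted p = 0.999; exact permutation p = 0.0857). In this channel limma called 3 of 16974 genes (0.0177%), and 524 had an unadjusted p below 0.05. The difference in the ratio thus lay in the Gfp-positive channel.

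**Figure D2:**
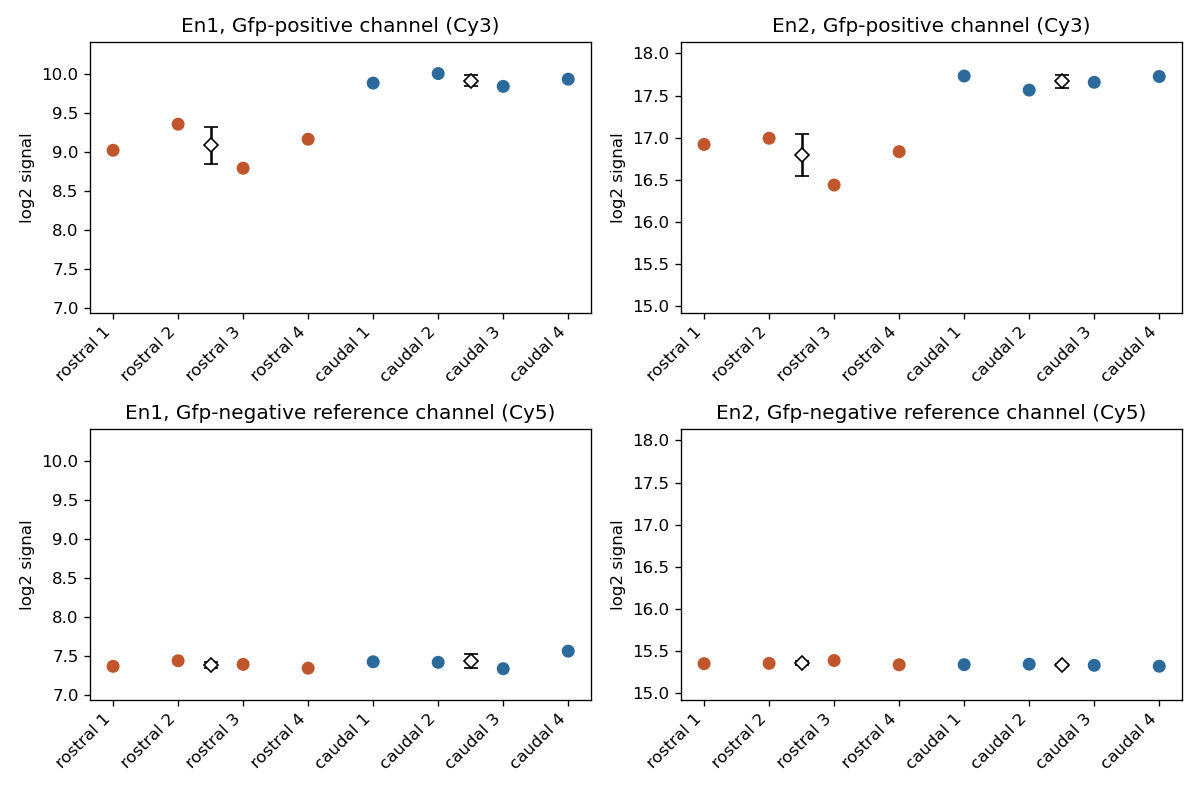
Log2 signal (y axis) of En1 (left) and En2 (right) in the Gfp-positive channel (top) and the reference channel (bottom) of each array, with rostral pools in orange and caudal pools in blue. Diamonds with bars are group means ± SD; the axis of 1 gene spans the same range in both channels, and the parts separate in the top panels only.

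The En1 reference signal was weak. It was well above background on 6 of 8 arrays, the exceptions being the arrays of rostral pool 4 and caudal pool 3, with raw medians of 162 to 202 over a local background of 88 to 94. Such a signal can limit the size of a ratio. Over both parts En1 stood at 2.09 here, 2.35 with an offset of 16 and 2.05 with no background correction. In the signals as processed by Feature Extraction, with no added offset, it stood at 3.21. There it had 2.71 ± 0.29 in rostral and 3.71 ± 0.12 in caudal pools (log2 ratio, SD, n = 4 each). Background subtraction and dye normalization also differ in those signals, and the source of the gap was not tested. En2, bright in both channels, stood at 1.97 in those signals, with 1.46 ± 0.30 in rostral and 2.47 ± 0.10 in caudal pools.

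The 2 genes shared some of their spread among rostral pools. Rostral pool 3 had the lowest and rostral pool 2 the highest ratio for both En1 and En2. Among caudal pools their order differed, pool 2 being the highest for En1 and the lowest for En2. The per-pool difference of the log2 ratios, En1 minus En2, averaged 0.26 ± 0.12 in rostral and 0.14 ± 0.17 in caudal pools (SD, n = 4 each). The difference between the parts was 0.12, with an interval of at least 95% from the permutation test of -0.28 to 0.385 (exact two-sided permutation p = 0.314). An unequal change of the 2 genes was therefore not detected, and the interval leaves room for one of that size.

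Markers of other cell types were read beside these differences. The rhombomere 1 territory next to the isthmus also forms serotonergic neurons, so their markers matter for engrailed genes. Of 4 tested members of that list of 6, all 4 were lower in Gfp-positive pools than in the reference (median log2 ratio -2.58), as were 36.9% of all genes. Fev, a serotonergic transcription factor gene, was lower in rostral than in caudal pools (-0.82, limma adjusted p = 0.00995), and the other 3 were not called. Among all genes 2.81% were called as lower in rostral pools. The summed green signal of the list was 2430 to 3177 in rostral and 3827 to 8068 in caudal pools, without overlap. Every caudal pool lay above every rostral pool for 6.07% of single genes. The sum includes Gata3, which is also counted in the GABAergic midbrain list. Slc6a4, the serotonin transporter gene, Fev, Gata2 and Gata3 were well above background in 8 of 8 pools. Tph2, the serotonin-synthesising enzyme, was so in 0 pools and Hoxa2, a hindbrain gene, in 1 pool.

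Among glutamatergic markers 2 of 4 were lower in rostral pools, Pou4f2 (-2.78) and Nkx6-1 (-2.55), while the summed signal was 23332 to 36628 in rostral and 30888 to 34186 in caudal pools. Pou4f1 (-0.54, limma adjusted p = 0.0846) and Slc17a6 (0.17, adjusted p = 0.605) were not called. Of 6 GABAergic midbrain markers, Tal2 (-1.79) and Tal1 (-1.01) were lower and Gad2 was higher (1.09) in rostral pools, with sums of 152552 to 247998 in rostral and 110081 to 168510 in caudal pools. Of 8 progenitor markers Vim was lower (-0.63) in rostral pools, with sums of 53014 to 66279 in rostral and 64388 to 74656 in caudal pools. The median difference of this list was -0.0056. Of its uncalled members, Sox2 (0.60), Sox9 (0.60), Fabp7 (0.37) and Hes5 (0.05) leaned higher, and Nes (-0.21), Slc1a3 (-0.20) and Hes1 (-0.06) lower. Over all genes 2.81% were called as lower and 3.53% as higher in rostral pools.

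Of 4 motor neuron markers tested, Isl1 was higher (0.65) in rostral pools, with sums of 4489 to 5578 in rostral and 3287 to 5150 in caudal pools. No endothelial marker of 3 and no erythroid marker of 4 was called between the parts, with sums of 2542 to 5118 and 35842 to 47956 in rostral pools, against 4322 to 5462 and 29882 to 40229 in caudal pools. The 6 dopaminergic markers summed to 958470 to 1081930 in rostral and 1062890 to 1206320 in caudal pools. The markers given by name with a difference were picked after their values were seen. The part of these cell types in the engrailed differences was not tested.

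The transcription factors that pattern the midbrain-hindbrain boundary with the engrailed genes were mostly low in the sorted cells. Of 10 members, 8 were lower and 1, Lmx1b, was higher in Gfp-positive pools than in the reference. Over all genes 36.9% were called as lower and 34.7% as higher. Pax2 stood at -0.75 (SE 0.07) and Pax5 at -0.94 (SE 0.06), and neither was called between the parts (Pax2 -0.07, adjusted p = 0.874; Pax5 -0.02, adjusted p = 0.96). By these probes both genes lay below the reference in all 8 pools, where En1 and En2 lay above it. Another Pax2 probe, well above background in 7 pools but on 2 reference arrays, gave 0.07 against the reference (adjusted p = 0.292). Lmx1b, which also serves in dopamine neurons, was at 0.63 (SE 0.10) against the reference and at 0.27 between the parts (adjusted p = 0.562), and another probe gave 0.19 against the reference.

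Between the parts, 3 of 10 boundary factors were lower and 1 was higher in rostral pools (median difference -0.28, against 0.0074 over all genes). The higher gene, Gbx2, passed the filter for testing through its rostral pools alone. Over all genes 2.81% were called as lower and 3.53% as higher. Pax8, a paired-box gene of the isthmus, had log2 ratios of -4.68, -3.91, -4.38 and -4.31 in rostral pools, against -2.33, -1.76, -2.37 and -2.49 in caudal pools (difference -2.09, SE 0.21, limma adjusted p = 0.00088). Otx2, which marks forebrain and midbrain up to the isthmus, had -2.53, -1.54, -3.45 and -2.24 in rostral pools, against -0.29, -0.57, -0.36 and -0.25 in caudal pools (-2.07, SE 0.32, adjusted p = 0.0062). Irx2, an Iroquois homeobox gene, differed by -1.25 (adjusted p = 0.0097). Like the engrailed genes, these 3 were higher in every caudal pool than in any rostral pool, but at levels below the reference. The same separation was seen for 6.07% of all genes. Rostral pool 3 was also the lowest pool for Otx2 and rostral pool 2 its highest rostral pool, as for En1 and En2. Pax8 and Irx2 did not share this order. Pax8 was lowest in rostral pool 1 and, among rostral pools, highest in pool 2. Irx2 was lowest in rostral pool 1 (-5.14) and, among rostral pools, highest in pool 3 (-4.74).

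Gbx2, which patterns the anterior hindbrain and opposes Otx2 at the isthmus, went the other way. Its log2 ratios were -0.42, -0.90, -0.26 and -0.64 in rostral pools, against -1.96, -2.29, -2.11 and -1.91 in caudal pools (limma adjusted p = 0.00163). It was well above background in 4 of 4 rostral and 0 of 4 caudal pools. Gbx2 thus entered the test through its rostral pools alone, and its call is no separate evidence of a difference. With caudal pools set at a floor, its Gfp-positive signal in rostral pools was higher by at least 2.88-fold. That bound sets the mean of rostral pools against a floor for caudal pools, which on each array was the dimmest signal counted as well above background or the signal of the Gbx2 probe, whichever was higher.

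The isthmic signals were not high in the sorted cells. Of 7 signals and receptors, 4 were lower and 0 were higher in Gfp-positive pools than in the reference, against 36.9% lower and 34.7% higher over all genes. Of the 4, Fgf8 was not called with median centring (-0.012, limma adjusted p = 0.746) or within slide row 2 (-0.092, adjusted p = 0.134). Other probes of the receptor gene Fgfr1 disagreed, at 0.20 (adjusted p = 0.00629) and -0.71 (adjusted p = 0.000658), the second of them well above background in 5 of the 8 pools. Wnt1, which keeps En1 on in the early midbrain, was at -0.58 (SE 0.06) against the reference, and at -0.75 ± 0.07 in rostral and -0.42 ± 0.18 in caudal pools (difference -0.33, limma adjusted p = 0.205). Fgf8, the organizer's signal, was at -0.11 (SE 0.03), with -0.12 ± 0.04 in rostral pools and -0.10 ± 0.05 in caudal pools (adjusted p = 0.945). The receptor gene Fgfr3 was the only member called between the parts, at -2.91 ± 0.23 in rostral and -4.35 ± 0.25 in caudal pools (difference 1.44, adjusted p = 0.00116), though another of its probes gave -0.35 (adjusted p = 0.246). The share called between the parts over all genes was 6.34%.

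Targets and feedback regulators of FGF signalling were also lower in Gfp-positive pools, 6 of 7 tested, against 36.9% of all genes. The exception was Cnpy1, an isthmic gene of the FGF pathway first studied in zebrafish, which was well above background in 7 pools but on 0 arrays in the reference, so it was at least 1.41-fold higher; it is named here after its value was seen. Between the parts 1 member was called each way, against 2.81% lower and 3.53% higher in rostral pools over all genes. Etv5, an ETS factor that FGF signals induce, was higher in rostral pools (1.12, limma adjusted p = 0.00264), and Il17rd, an inhibitor of FGF signalling, was lower (-0.78, adjusted p = 0.00776).

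Of 15 genes for the partners and corepressors of engrailed proteins, 7 were higher and 6 lower in Gfp-positive pools, a split both ways like that over all genes (34.7% higher and 36.9% lower). Pknox2, of the Meis-like TALE family, was at 1.08 (SE 0.04) and Meis1 at -1.31 (SE 0.05) against the reference.

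Between the parts, 5 partners were lower and 1 was higher in rostral pools (median difference -0.20), and 4 of the 5 were Tle genes. The shares over all genes tested were 2.81% lower and 3.53% higher. Tle3 had log2 ratios of 0.53, 0.47, 0.67 and 0.67 in rostral pools, against 1.28, 1.43, 1.34 and 1.43 in caudal pools (difference -0.79, SE 0.06, limma adjusted p = 0.00046). It was above the reference in all 8 pools, as were the engrailed genes. Tle1 differed by -0.83 (adjusted p = 0.00165), but its other probes gave -0.80 (adjusted p = 0.0381) and -0.07 (adjusted p = 0.852). Tle6, a divergent family member, averaged -0.71 ± 0.37 in rostral pools and 0.63 ± 0.32 in caudal pools (-1.34, adjusted p = 0.0062). Pbx3 was the member that was higher, with 1.32 ± 0.18 in rostral pools and 0.57 ± 0.12 in caudal pools (difference 0.75, adjusted p = 0.00241).

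**Figure D3:**
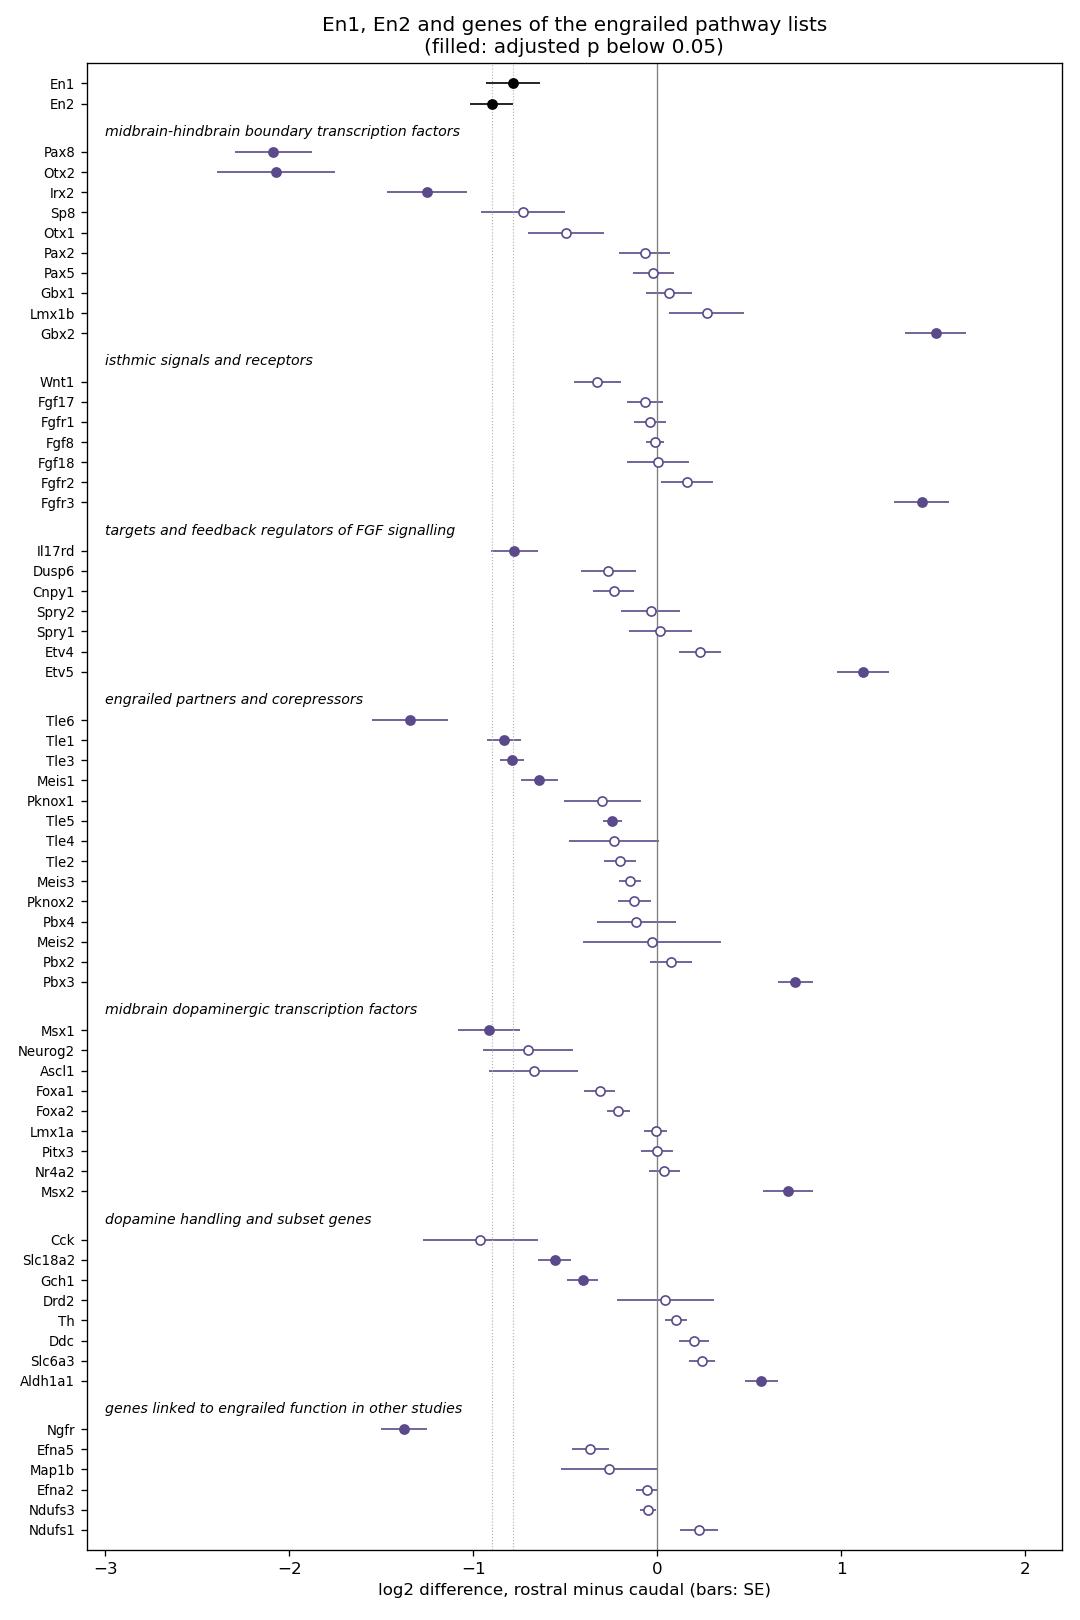
Log2 difference, rostral minus caudal (x axis), of En1 and En2 (black) and of tested genes of the 7 lists (purple), with bars for the SE. Filled points passed limma's test at an adjusted p below 0.05, and dotted lines carry the values of En1 (-0.78) and En2 (-0.90) down the lists. Near these lines lie the called genes Tle1, Tle3, Il17rd and Msx1, and also some genes that were not called (open points).

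Most transcription factors of dopamine neurons were enriched without a called difference between the parts. Of 9 members, 6 were higher and 2 lower in Gfp-positive pools, against 34.7% higher and 36.9% lower over all genes. Foxa1 and Foxa2, forkhead factors of the floor plate, were at 3.94 and 3.70 against the reference, with differences between the parts of -0.31 (adjusted p = 0.0589) and -0.21 (limma adjusted p = 0.0799). Another Foxa2 probe gave -0.40 (adjusted p = 0.0491). Pitx3 averaged 3.58 ± 0.12 in rostral pools and 3.59 ± 0.10 in caudal pools (difference -0.0013, adjusted p = 0.997), so the gene behind the sort was not called where En1 and En2 were. The called members were Msx1, lower in rostral pools (-0.92, adjusted p = 0.0124), and Msx2, higher (0.71, adjusted p = 0.0144). The shares over all genes were 2.81% lower and 3.53% higher.

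All 8 genes of dopamine handling were higher in Gfp-positive pools (median 3.73), against 34.7% of all genes. Between the parts 3 were called, against 6.34% of all genes. Aldh1a1, a retinaldehyde dehydrogenase of a dopamine neuron subset, averaged 5.91 ± 0.14 in rostral pools and 5.35 ± 0.14 in caudal pools (difference 0.57, limma adjusted p = 0.00662). Slc18a2, which loads dopamine into vesicles, averaged 4.66 ± 0.12 in rostral pools and 5.22 ± 0.10 in caudal pools (-0.56, adjusted p = 0.00776). Gch1, which makes the cofactor of Th, differed by -0.41 (adjusted p = 0.0225), with -0.51 by another probe (adjusted p = 0.219). Th did not pass the test (0.10, adjusted p = 0.439).

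Of 6 genes that other studies link to engrailed function, 1 was higher and 4 were lower in Gfp-positive pools, a share of calls near the 71.6% over all genes. Of the 4, Efna2, an ephrin ligand gene, was not called with median centring (-0.075, limma adjusted p = 0.123), nor Ndufs3 from the scanner software's own processed signals (-0.018, adjusted p = 0.445). Between the parts 1 was called, against 6.34% of all genes. That gene was Ngfr, the low-affinity neurotrophin receptor, at -1.48 ± 0.24 in rostral and -0.11 ± 0.14 in caudal pools (difference -1.38, limma adjusted p = 0.00066). Ndufs1 and Ndufs3, subunits of mitochondrial complex I whose translation engrailed protein has been reported to raise, differed by 0.23 (adjusted p = 0.284) and -0.05 (adjusted p = 0.633). An array measures RNA and not translation. Efna5, an axon guidance ligand of the midbrain, had -0.90 ± 0.21 in rostral pools and -0.53 ± 0.10 in caudal pools (adjusted p = 0.0732).

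To see which genes read most like the engrailed genes, the root-mean-square difference of log2 ratio over the 8 pools was taken against each of 18053 other tested genes. By this measure the nearest gene to En1 was Ajap1, a junction-associated membrane protein gene (0.159), followed by En2 (0.246), Shisa6 (0.248), Dmrta1 (0.253) and Rbp4 (0.271). Nearest to En2 were Tead1 (0.216), Galnt9 (0.224), 4930578M01Rik (0.228), Ece2 (0.24) and En1 (0.246). The engrailed genes were thus the second and the fifth in each other's order. That order was taken on the main values only and was not taken again under other processing. In the Feature Extraction processed signals En1 stood at 3.21 and En2 at 1.97 against the reference, further apart than here. The measure is a description over pools that share arrays and a reference.

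Ajap1 averaged 1.76 ± 0.27 in rostral pools and 2.46 ± 0.12 in caudal pools (log2 ratio, SD, n = 4 each), and Shisa6, an AMPA receptor auxiliary protein gene, averaged 1.67 ± 0.23 in rostral pools and 2.60 ± 0.09 in caudal pools. Galnt9, a glycosyltransferase gene, averaged 1.43 ± 0.19 in rostral pools and 2.06 ± 0.05 in caudal pools. Rbp4, the retinol carrier, overlapped between the parts. The reference was well above background on 0 arrays for Dmrta1, so it was at least 3.86-fold higher in Gfp-positive pools. Other probes of Tead1 gave differences between the parts of -0.26 and -0.02 against -0.87. With each gene's mean over the 8 pools removed, the nearest genes to En1 were Scd1 (0.0927), Aspa (0.0979) and Twsg1 (0.109), with En2 as number 14. The nearest to En2 were Dll3 (0.0908), Nrp1 (0.111) and Hrh3 (0.113), with En1 as number 15.

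**Figure D4:**
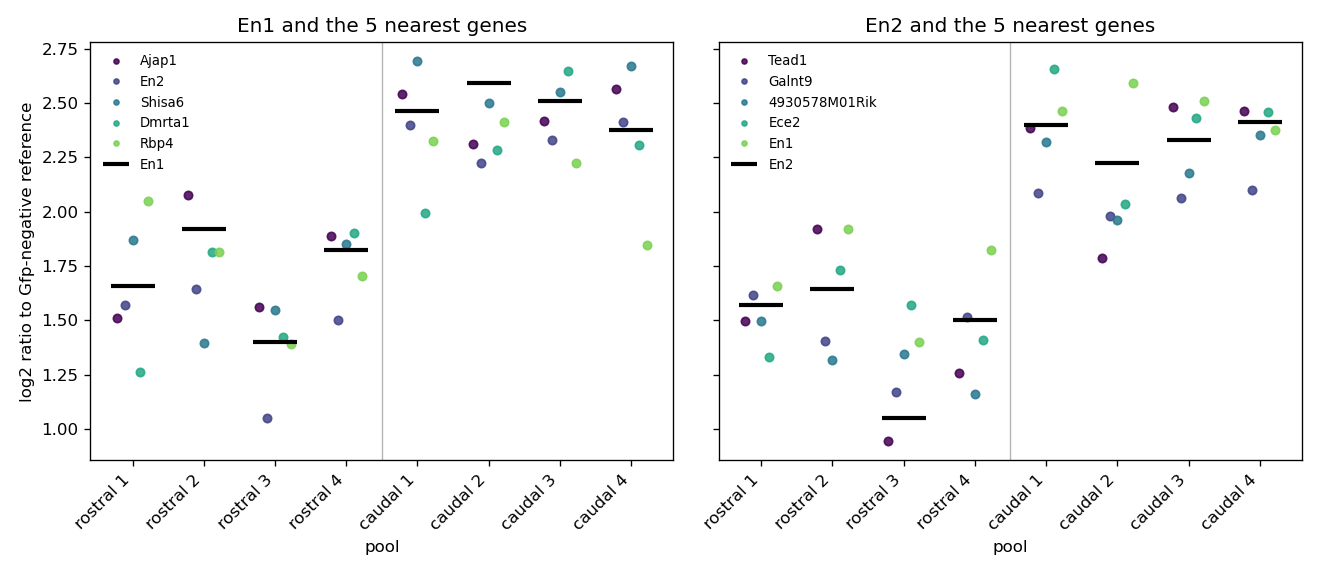
Log2 ratio to the Gfp-negative reference (y axis) in each rostral and caudal pool (x axis) for En1 (left) and En2 (right), drawn as black bars, and for the 5 genes nearest to each (dots). In rostral pool 3 En2 stands at 1.05, its lowest value, and Tead1 lies beside it.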

How the data were processed

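Green and red channel values of 8 two-colour Agilent arrays were used. The scanner files hold median spot and local background intensities, deposited by the authors as raw values; per the file headers they came from Agilent Feature Extraction 10.7.3.1. Their processed intensities were background-subtracted and dye-normalized by the authors, per the file headers. The submitters' processing notes also name RMA, without a role. Another 8 deposited columns of values match no sample and were not used; only the probe annotation of their table was.

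In R 4.3.3 with limma 3.58.1 (files read by data.table, version 1.17.8), normexp (offset 50) over all spots and loess per array (control and outlier spots at weight 0) gave log2 ratios of green over red from the deposited intensities. Spots of a probe were averaged without the 210 to 298 outlier spots per array. Symbols came from RefSeq accessions (27509 probes) or the annotated table (4124), and 24048 probes stayed unnamed. The brightest probe stood for a gene. A gene was tested if well above background on at least 4 of 8 arrays, in green for rostral against caudal and in either channel against the reference. Tests used lmFit and eBayes with an intensity trend and the Benjamini-Hochberg adjustment, threshold 0.05, and a design of 2 group means. Single channels were taken after loess and Aquantile scaling. Aside from the exact permutation tests, all p-values are from limma.

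Replicate numbers were checked for pairing: deviations of same-numbered pools correlated at -0.07 to 0.02 over genes, with 0 of 4 pairs over 0.1, so the main design has no block. Such correlations cannot show that same-numbered pools came from separate embryos. Alternatives were other background corrections and scalings, filters, probe rules, blocks, slide rows, each pool left out, and outlier spots kept, the last chosen after seeing the data. Named were En1 and En2, up to 4 members of each pathway list with the smallest p per comparison, a fixed set of isthmic and dopamine neuron genes, and per engrailed gene the 5 nearest in level and 3 in pattern. Some genes of the lists are not reported here. Members, lists and markers were chosen with earlier results of these data known.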

Additional observations from a re-analysis of the deposited data

Results flagged for a closer look

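Differences between the parts come first. En1 (-0.78, limma adjusted p = 0.0143) and En2 (-0.90, adjusted p = 0.00281) stand out because their ratio to the reference differed between rostral and caudal pools by limma's test of that difference, with 8 of 8 pools above the reference. Of the other genes named, 7 lay on opposite sides of the reference in the parts, in 4 of 4 pools each, and limma called the difference of every one of the 7. Tle6 (-1.34, adjusted p = 0.0062), Msx1 (-0.92, adjusted p = 0.0124), the BMP modulator gene Twsg1 (-0.73, adjusted p = 0.00888), the Notch ligand gene Dll3 (-0.97, adjusted p = 0.00382), the semaphorin receptor gene Nrp1 (-0.79, adjusted p = 0.0208) and the histamine receptor gene Hrh3 (-0.78, adjusted p = 0.00617) were below it in rostral and above it in caudal pools. Msx2 (0.71, adjusted p = 0.0144) was above it in rostral and below it in caudal pools. Twsg1, Dll3, Nrp1 and Hrh3 were named for a pattern like that of En1 or En2, so neither their direction nor their calls are separate evidence. Tle6, Msx1 and Msx2 were named for p-values among the smallest of their lists in this comparison, so their calls are no separate evidence either. The share of all genes on opposite sides of the reference was not counted.

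Single pools far from the other 3 of their part were looked for by Dixon's test in 132 groups of 4 values. These were log2 ratios and the channel signals of En1 and En2. Such pools were found in 8 groups. Chance gives about 1 in 20 groups, and 8 of 132 is near that share. No En1 or En2 pool was among them. Caudal pool 2 stood apart for Aldh1a1 (5.14, others 5.39 to 5.43), Tead1 (1.79, others 2.38 to 2.48) and Ndufs1 (0.11, others -0.02). Caudal pool 3 stood apart for Fgf8 (-0.035, others -0.13 to -0.12), Pknox2 (0.93, others 1.19 to 1.23) and Ngfr (-0.32, others -0.05 to -0.02). Caudal pool 4 stood apart for Pax5 (-0.85, others -0.97 to -0.96), and rostral pool 1 for Tle1 (-1.54, others -1.18 to -1.17).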

How the results depend on the processing

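En1 and En2 stayed above the reference and lower in rostral than in caudal pools under every alternative run. Against the reference, En1 ranged from 2.03 to 3.21 and En2 from 1.77 to 1.97. Between the parts En1 ranged from -1.0 to -0.68 and En2 from -1.10 to -0.70. The call between the parts was lost for En1 within slide row 1 (-0.74, limma adjusted p = 0.282) and row 2 (-0.83, adjusted p = 0.228), and for En2 within row 1 (-0.70, adjusted p = 0.111), with fewer pools in each fit. With the replicate number as a block, the calls of En1 (-0.78, adjusted p = 0.0507) and of its Gfp-positive channel (-0.83, adjusted p = 0.052) were lost. The call of En2 held there (adjusted p = 0.0125). Whether same-numbered pools came from the same embryos is not known from the labels. Without 1 pool at a time En1 was at -0.86 to -0.68 (adjusted p = 0.0194 to 0.0424) and En2 at -0.97 to -0.77 (adjusted p = 0.00116 to 0.0124), and all these calls held. The count of genes called between the parts, 1145, was 724 with the replicate block, 0 within row 1 (2383 at an unadjusted p below 0.05) and 185 within row 2. It was 717 to 1013 without 1 pool, with 717 without caudal pool 1 and 755 without caudal pool 4. The count against the reference, 13258, was 25655 with every probe tested on its own, over 37894 probes, and 12616 to 12871 without 1 pool.

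Uncalled genes near 0 changed sign between the parts, and the cause was not tested. Pitx3 was at 0.0032 with an offset of 16, 0.045 in the Feature Extraction processed signals, 0.033 with median centring, 0.015 within row 2, and -0.0418 to 0.054 without 1 pool (0.0047 without rostral pool 2, 0.046 without caudal pool 2). Pax5 was at 0.034 in the processed signals, 0.052 as the mean over probes, 0.013 within row 1, and -0.0646 to 0.026 without 1 pool (0.0058 without caudal pool 4). Th was at -0.074 and Fgf17 at 0.12 in the processed signals. Fgf8 was at 0.0042 within row 1 and -0.0295 to 0.0103 without 1 pool, and Pax2 at 0.051 within row 2. Over the other named genes and comparisons, 1693 of the values under an alternative kept direction and call, 86 lost the call and 5 gained it, most of them within a slide row; those of Tead1 and Gch1 between the parts changed most often. Against the reference, the calls lost were those of Fgf8 (median centring, slide row 2), Efna2 (median centring) and Ndufs3 (processed signals). The number of arrays limits the precision, and the dim En1 reference may limit the size of its ratio, which was not tested.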
